A study of Arabidopsis thaliana with 4 samples.

Results

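The rows described here are nuclear genes of Arabidopsis thaliana whose listed abundance differed in the same direction between a miR164 overexpressor and wild type, both without heat and with heat. They were taken from an FPKM table (fragments per kilobase of transcript, scaled to the mapped fragments of the library) by a fixed rule. A row had to carry a nuclear locus code and average 20 FPKM or more across the 4 libraries. Its log2(FPKM + 1) had to differ by at least 1, about 2-fold, with the same sign in the overexpressor minus wild type without heat and in the overexpressor minus wild type with heat. This took 83 of 32823 rows in all, or 83 of the 2463 nuclear rows above the minimum (3.37%). Of these, 46 rows were higher in the overexpressor in both comparisons (1.87%) and 37 were lower in both (1.5%). A further 85 rows passed the same fold in both comparisons with opposite signs (3.45%).

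Seedlings of the Col-0 ecotype were sequenced whole, in 1 library per group. The groups were the heated overexpressor (miR164OE-H), heated wild type (WT-H), the unheated overexpressor (miR164OE-C) and unheated wild type (WT-C). The heated seedlings were 5 days old when they were moved from 22 °C to 35 °C, where they stayed for 5 days; all plants had 16 h of light a day. No age is recorded for the controls in the labels used here, and neither the promoter of the miR164 transgene nor the number of lines is given there. With 1 library per group there is no spread between replicates, no test was made, and every difference is one between single libraries. Because the rows were chosen on these differences, the differences are a description and support nothing further. In bulk seedlings, fewer cells of a type and less RNA per cell cannot be told apart.

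miR164 is a plant microRNA that pairs with a site of near-perfect complementarity in the transcripts of several NAC transcription factors and directs their cleavage. Its targets include CUC1 and CUC2, which set the boundaries between organs, NAC1, which acts in lateral root formation, and ORE1, a promoter of leaf senescence that the annotation lists as NAC6. The mature strands, read from the TAIR10.1 genome at their annotated positions and shown so that a site can be compared with them, are given 5′ to 3′ with T for U and the seed, bases 2 to 8, in capitals. miR164a and miR164b-5p have the same sequence, and the 3 strands share 1 seed.
ath-miR164a: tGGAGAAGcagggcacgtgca
ath-miR164b-5p: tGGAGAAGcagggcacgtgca
ath-miR164c-5p: tGGAGAAGcagggcacgtgcg

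The stretch of each NAC transcript that pairs best with miR164a had 2 to 4 mismatches over its 21 bases. These stretches are shown in the sense of the gene, with paired bases in capitals, as the pattern looked for in the selected rows.
NAC1: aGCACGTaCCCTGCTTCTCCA
CUC2: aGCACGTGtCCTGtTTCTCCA
NAC6: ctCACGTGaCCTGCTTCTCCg

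None of the selected rows held a stretch this close in its own exons. The best stretch had 7 or more mismatches in the 46 higher rows and 8 or more in the 37 lower rows, with a median of 10 in each. Over all 2463 rows the median was 9, and 1 row, NAC1 itself, had 4 or fewer (0.0406%). The selected rows were shorter, with medians of 303 (higher) and 272 (lower) exon bases against 1067 over all rows. A shorter row offers fewer stretches to search, so nothing is drawn from the gap between these medians. Among the genes on the other strand from a selected row, the best stretch had 6 mismatches for the higher rows (CYSB and ASAT1) and 7 for the lower rows (CRN). This search looked for letters on 1 strand only and says nothing of binding.

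The microRNA and its targets were hardly seen in these values. All 3 precursor genes, of 102 to 153 bases, were listed at 0 in every library, and so gave no check of the genotype labels. CUC1, CUC2, NAC080 and NAC100 were also at 0 throughout. NAC1 had 11.005 FPKM in miR164OE-C against 5.43 in WT-C, and 27.2 in miR164OE-H against 38.3 in WT-H, so it went opposite ways and stayed within the fold. NAC6 (ORE1) was listed at 0 in miR164OE-C against 2.73 FPKM in WT-C, and had 1.48 in miR164OE-H against 11.2 in WT-H. It was lower in both comparisons, but its mean of 3.86 FPKM lay below the row minimum.

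Of the genes known to act with these NAC factors, almost none reached the row minimum that the selection needs: 0 of 8 boundary and meristem genes, 2 of 9 senescence genes and 0 of 8 auxin and lateral root genes had a mean of 20 FPKM. They are therefore described at a minimum of 1 FPKM. Of the boundary and meristem genes, 4 passed it. Of these, LAS, KNAT1, KNAT2 and LSH3 were all past the fold upward with heat (19.7% of all rows at this minimum), and without heat KNAT1 was higher (16.8% of all rows) and LSH3 lower (18.9%). Their levels were low, and LAS and LSH3 were listed at 0 in WT-H, against 4.96 and 3.04 FPKM in miR164OE-H. CUC3, of the same list but under the minimum, went the other way with heat, at 0 in miR164OE-H against 2.43 FPKM in WT-H. KNAT1, a homeobox gene of the meristem, had 1.88 FPKM in miR164OE-C and was listed at 0 in WT-C, and had 7.08 in miR164OE-H against 1.19 in WT-H, so it was past the fold upward in both comparisons. Of the senescence genes, 4 had a mean of at least 1 FPKM, and with heat only SEN1 passed the fold, downward (13.6% of all rows). Of the auxin and lateral root genes, 3 had such a mean; without heat AT5G53360 was lower, and with heat TIR1, an auxin receptor gene, was higher and AT5G53360 lower. AT5G53360 was listed at 0 in both miR164OE libraries, against 3.48 FPKM in WT-C and 6.12 in WT-H. The median differences without and with heat were 0.10 and 1.95 for the boundary rows, -0.50 and -0.20 for the senescence rows and -0.54 and 0.30 for the auxin rows, beside 0 and 0 over all 10372 rows at this minimum.

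Rows that differed the same way in both comparisons were not more frequent than rows that differed opposite ways. Without heat, 232 of the 2463 rows were past the fold upward in miR164OE (9.42%) and 208 downward (8.44%), 440 in all (17.9%). With heat, 169 were upward (6.86%) and 196 downward (7.96%), 365 in all (14.8%). Of the 232 rows higher without heat, 19.8% were higher and 19.8% lower with heat. Of the 208 rows lower without heat, 17.8% were lower and 18.8% higher with heat. Counting differences of any size, 1192 rows had the same sign in both comparisons, 1185 had opposite signs and 86 had a difference of exactly 0.

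**Figure D1:**
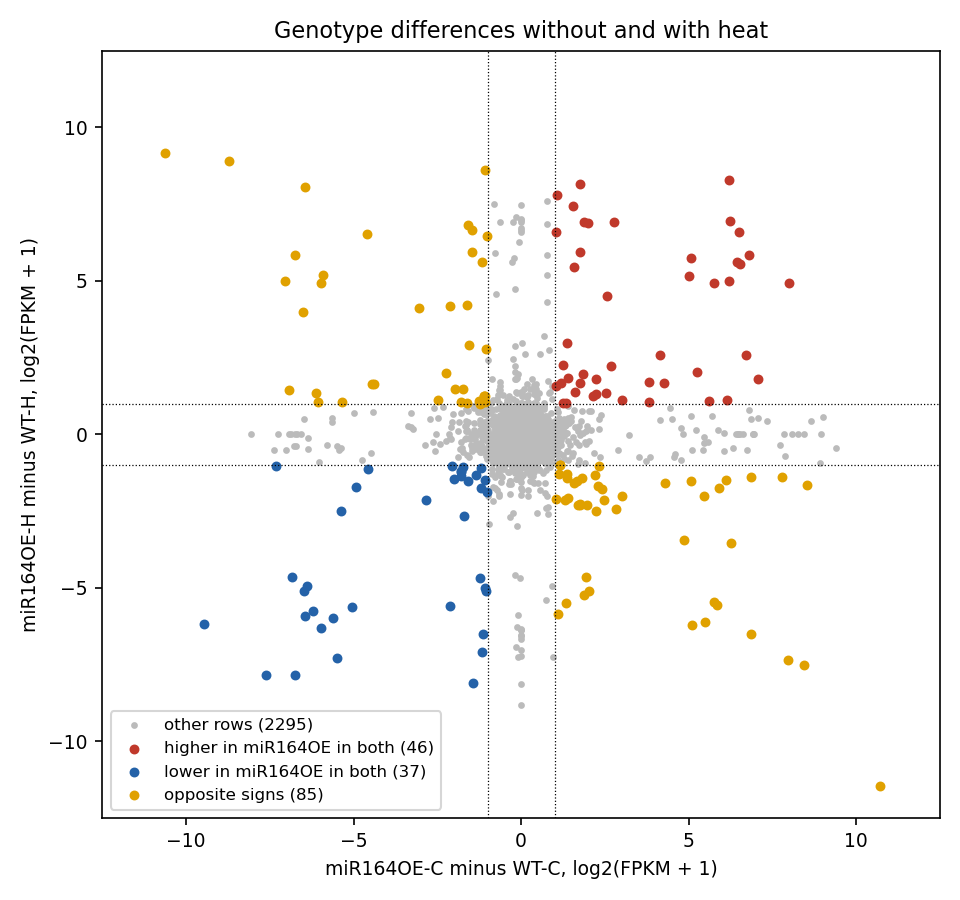
Each point is 1 nuclear row averaging 20 FPKM or more; the x axis is the difference of log2(FPKM + 1) without heat and the y axis the same with heat, miR164OE minus WT, and dotted lines mark a difference of 1. The 46 higher and 37 lower rows fill the upper right and lower left corners, and the 85 rows with opposite signs fill the other corners to a similar extent.

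The highest of the rows higher in miR164OE lay opposite a pair of neighbouring genes of the lipid-transfer superfamily, small secreted proteins of the cell surface, on chromosome 4. AT4G12555 (TAIR10 chromosome 4, 7439164 to 7440116, minus strand) has 285 of its 321 exon bases opposite AIR1, annotated as Auxin-Induced in Root cultures 1. It had 1308 FPKM in miR164OE-C against 204 in WT-C, and 4029.9 in miR164OE-H against 859 in WT-H. AT4G12543 (7434094 to 7434642, minus strand) has 380 of 423 exon bases opposite AT4G12545. It had 772 FPKM in miR164OE-C against 53.6 in WT-C, and 2518 in miR164OE-H against 775 in WT-H. Both rows were therefore higher in each overexpressor library than in its wild-type counterpart, and higher with heat than without it in both genotypes. The genotype differences were 2.68 without heat and 2.23 with heat for AT4G12555, and 3.83 and 1.70 for AT4G12543.

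The AIR1 and AT4G12545 rows themselves were listed at 0 in all 4 libraries. The library kit keeps the strand, but the strand setting of the counting is not given in the sources used here, so fragments of AIR1 and of the row opposite it cannot be told apart. The selected rows of this pair lie 4521 bases apart and share sequence. The stretches below, in which both rows overlap the gene opposite, are read on the plus strand from TAIR10.1 (chr4:7439333-7439511 and chr4:7434408-7434586) and are shown because a fragment from one could be assigned to the other; capitals mark the bases that differ.
AT4G12555: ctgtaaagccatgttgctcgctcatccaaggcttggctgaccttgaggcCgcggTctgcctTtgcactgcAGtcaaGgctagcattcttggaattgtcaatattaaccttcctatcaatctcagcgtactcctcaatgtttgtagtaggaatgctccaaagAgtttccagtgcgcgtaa
AT4G12543: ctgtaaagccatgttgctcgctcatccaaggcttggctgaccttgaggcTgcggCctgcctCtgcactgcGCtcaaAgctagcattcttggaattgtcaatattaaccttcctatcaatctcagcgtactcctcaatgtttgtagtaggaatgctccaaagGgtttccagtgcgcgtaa

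These stretches were identical at 172 of 179 bases (96.1%), and the transcripts of AIR1 and AT4G12545 at 607 of 657 aligned bases (92.4%). How the counting divided fragments between such copies is not given in the sources used here, so the values of the pair are uncertain as separate measurements and count as 1 locus at most.

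No lipid-transfer gene of the same stretch of chromosome 4 went the way of this pair in both comparisons, nor did AT4G12495, which lies opposite one. AT4G12500, AT4G12510 and AT4G12520 were listed at 0 in all 4 libraries, and AT4G12490 was above 0 only in WT-H, at 2.33 FPKM. AT4G12495, opposite AT4G12490, had 812 FPKM in miR164OE-C against 1888 in WT-C, and 12002 in miR164OE-H against 5998 in WT-H, which puts it among the rows with opposite signs. AZI1, which is known for priming of systemic defence, had 7.03 FPKM in miR164OE-C against 36.8 in WT-C, and 35.2 in miR164OE-H against 8.02 in WT-H. EARLI1 was listed at 0 in miR164OE-C against 3.54 FPKM in WT-C, and had 36.7 in miR164OE-H against 7.09 in WT-H. AT4G12530 ran the other way, with 3.54 FPKM in miR164OE-C and 0 listed in WT-C, and 48.2 in miR164OE-H against 73.3 in WT-H. In the whole table, 15 rows above the minimum had a gene of this superfamily as their main overlap on the other strand. Of these, 3 were higher in miR164OE in both comparisons (1.87% of all rows) and 1 had opposite signs (3.45% of all rows). The 3 include the AIR1 pair as separate rows. The set was drawn up around that pair, with AIR1 matched by its own product name, so the count is no measure of an excess. The third higher row was AT3G22565, with 671 of 1592 exon bases opposite AT3G22570. It had 21.0 FPKM in miR164OE-C against 3.67 in WT-C, and 62.4 in miR164OE-H against 17.2 in WT-H.

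**Figure D2:**
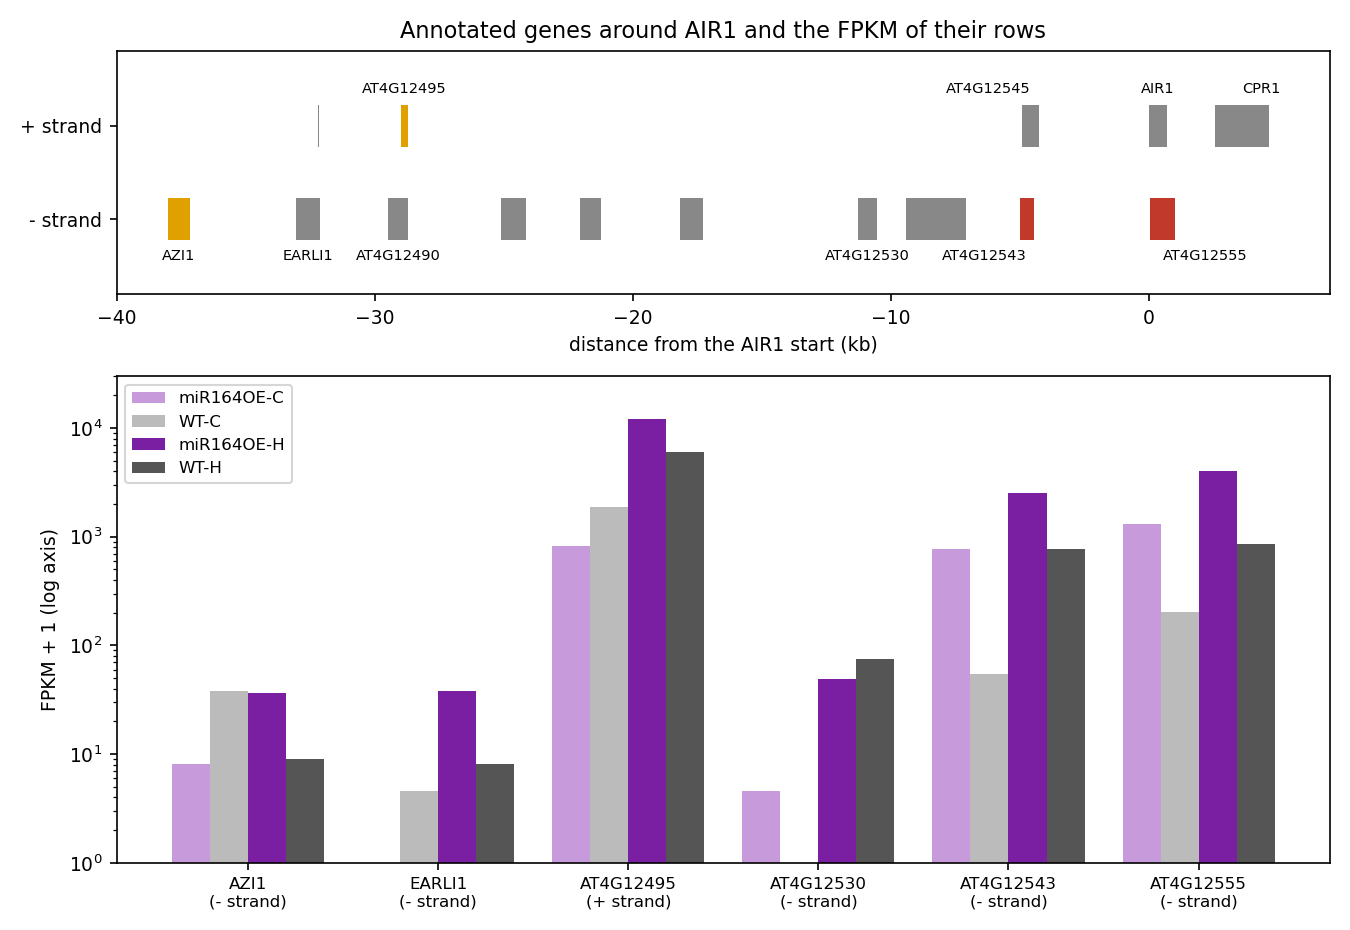
The upper panel maps annotated genes by strand against distance from the AIR1 start in kb, with the pair of rows higher in miR164OE in red and rows with opposite signs in amber. The lower panel gives FPKM + 1 on a log axis for the rows that reach 5 FPKM in a library: AT4G12543 and AT4G12555 are higher in each miR164OE library than in WT, while AZI1, EARLI1 and AT4G12495 are lower without heat and higher with heat, and AT4G12530 is higher without heat and lower with heat.

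Of the 46 higher rows, 16 were above 0 in all 4 libraries. After the AIR1 pair the next in level was AT5G01295, a non-coding row of 302 bases lying wholly inside PRA1.B6, a gene for a prenylated RAB acceptor of vesicle traffic, on the other strand. It had 684 FPKM in miR164OE-C against 267 in WT-C, and 269 in miR164OE-H against 132 in WT-H. The PRA1.B6 row did not list this difference, with 7.33 FPKM in miR164OE-C against 6.70 in WT-C, and 5.56 in miR164OE-H against 7.10 in WT-H. As the strand setting is not given, fragments of AT5G01295 and PRA1.B6 cannot be told apart. The same holds for every selected row described here that overlaps a gene on the other strand. LECRK56 (AT3G59730), a lectin receptor kinase gene, was the longest of the 16, with 1766 exon bases and no gene on the other strand (chromosome 3, 22064192 to 22065957). It had 5.98 FPKM in miR164OE-C against 1.30 in WT-C, and 772 in miR164OE-H against 294 in WT-H. Its genotype differences of 1.60 and 1.39 were small beside its heat differences of 6.79 in miR164OE and 7.001 in WT.

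A low level was taken for each length and library, as the 10th percentile of the values above 0 among rows within 10% of that length. LECRK56 stood at 6.09 times this level in miR164OE-C against 1.31 times in WT-C, so its difference without heat rests on a value near it. With heat it stood at 1165 times in miR164OE-H against 319 times in WT-H. AT2G08435, a non-coding row of 1469 bases opposite AT2G31390, stood farthest above the low level of all selected rows that had one. AT2G08435 was at 142 times or more in the higher library of each comparison. It had 170.3 FPKM in miR164OE-C against 74.2 in WT-C, and 120.4 in miR164OE-H against 36.7 in WT-H. AT5G01005, of 247 bases, all opposite AT5G05190, had 309 FPKM in miR164OE-C against 116 in WT-C, and 196 in miR164OE-H against 54.0 in WT-H. AT2G08440, which overlaps the glutathione peroxidase gene GPX2 by 44 of its 294 bases, had 302 FPKM in miR164OE-C against 126 in WT-C, and 94.5 in miR164OE-H against 18.7 in WT-H. In these rows, unlike the AIR1 pair and LECRK56, each genotype was listed lower with heat than without it. The listed nuclear values summed to 1.98e+06 FPKM in miR164OE-C against 1.03e+06 in miR164OE-H, and to 1.90e+06 in WT-C against 1.11e+06 in WT-H. Heat differences were not rescaled for this, so the direction of the smaller ones depends on the scaling.

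AT5G17280, a gene for an oxidoreductase-like protein, lies wholly inside APG5, a gene of autophagosome formation, on the other strand. It had 41.1 FPKM in miR164OE-C against 16.5 in WT-C, and 35.6 in miR164OE-H against 17.0 in WT-H. The APG5 row was far above it and level between genotypes without heat, at 415 FPKM in miR164OE-C and 415 in WT-C, and had 252 in miR164OE-H against 292 in WT-H. Over the 16 rows the differences ran from 1.04 to 3.83 without heat and from 1.02 to 2.27 with heat.

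The lower rows that were above 0 in all 4 libraries numbered 14 of 37. The highest was AT1G07901, a coding row of only 153 bases, with 375 FPKM in miR164OE-C against 866 in WT-C, and 606 in miR164OE-H against 1295 in WT-H. Of its bases, 40 lie opposite AT1G07902. AT5G13295, of 354 bases, lies wholly inside CRN, a gene for a receptor-like protein of meristem signalling, on the other strand. It had 258 FPKM in miR164OE-C against 522 in WT-C, and 122 in miR164OE-H against 455 in WT-H. The CRN row was low, with 2.14 FPKM in miR164OE-C against 2.68 in WT-C, and 3.06 in miR164OE-H against 4.75 in WT-H, and was within the fold.

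GORK, the outward-rectifying potassium channel gene known for its part in stomatal closure, was the longest row of either direction, with 3718 exon bases and no exon overlap (chromosome 5, 14889245 to 14895233). It had 0.628 FPKM in miR164OE-C against 4.69 in WT-C, and 58.8 in miR164OE-H against 138 in WT-H. Against the low level of its length it stood at 1.31 times in miR164OE-C against 9.07 times in WT-C, and at 185 times in miR164OE-H against 309.9 times in WT-H. PUB21, a U-box gene next to GORK, did not move with it without heat, with 4.15 FPKM in miR164OE-C and 0 listed in WT-C, and had 219 in miR164OE-H against 367 in WT-H.

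AT2G30766 (chromosome 2, 13107583 to 13110480, plus strand), of 1995 exon bases, had the largest difference without heat of the 14 rows. It had 2.75 FPKM in miR164OE-C against 26.1 in WT-C, and 18.1 in miR164OE-H against 83.3 in WT-H, differences of -2.85 and -2.14. It overlaps CYP71A13, a cytochrome P450 gene of camalexin synthesis, by 330 bases. CYP71A13 itself had opposite signs, with 47.2 FPKM in miR164OE-C against 15.1 in WT-C, and 37.7 in miR164OE-H against 115 in WT-H. AT4G03940, of 1360 bases, had 5.60 FPKM in miR164OE-C against 15.8 in WT-C, and 22.8 in miR164OE-H against 58.9 in WT-H. Both rows were higher with heat than without it in each genotype.

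AT3G21405, of 207 bases, 149 of them opposite AT3G21400, had 91.2 FPKM in miR164OE-C against 275 in WT-C, and 90.5 in miR164OE-H against 261 in WT-H. Its listed values, without rescaling, hardly differed between treatments in either genotype. AT3G07675, of 302 bases, had 113 FPKM in miR164OE-C against 240 in WT-C, and 56.1 in miR164OE-H against 159 in WT-H. Over the 14 rows the differences ran from -2.85 to -1.01 without heat and from -2.67 to -1.04 with heat. AT1G06687 and AT1G06693, non-coding rows 637 bases apart on chromosome 1, were the only other neighbours of the same direction within 10000 bases. AT1G06687 had 15.8 FPKM in miR164OE-C against 69.6 in WT-C, and 32.4 in miR164OE-H against 67.9 in WT-H, while AT1G06693 was listed at 0 in both miR164OE libraries, against 73.3 in WT-C and 53.4 in WT-H.

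**Figure D3:**
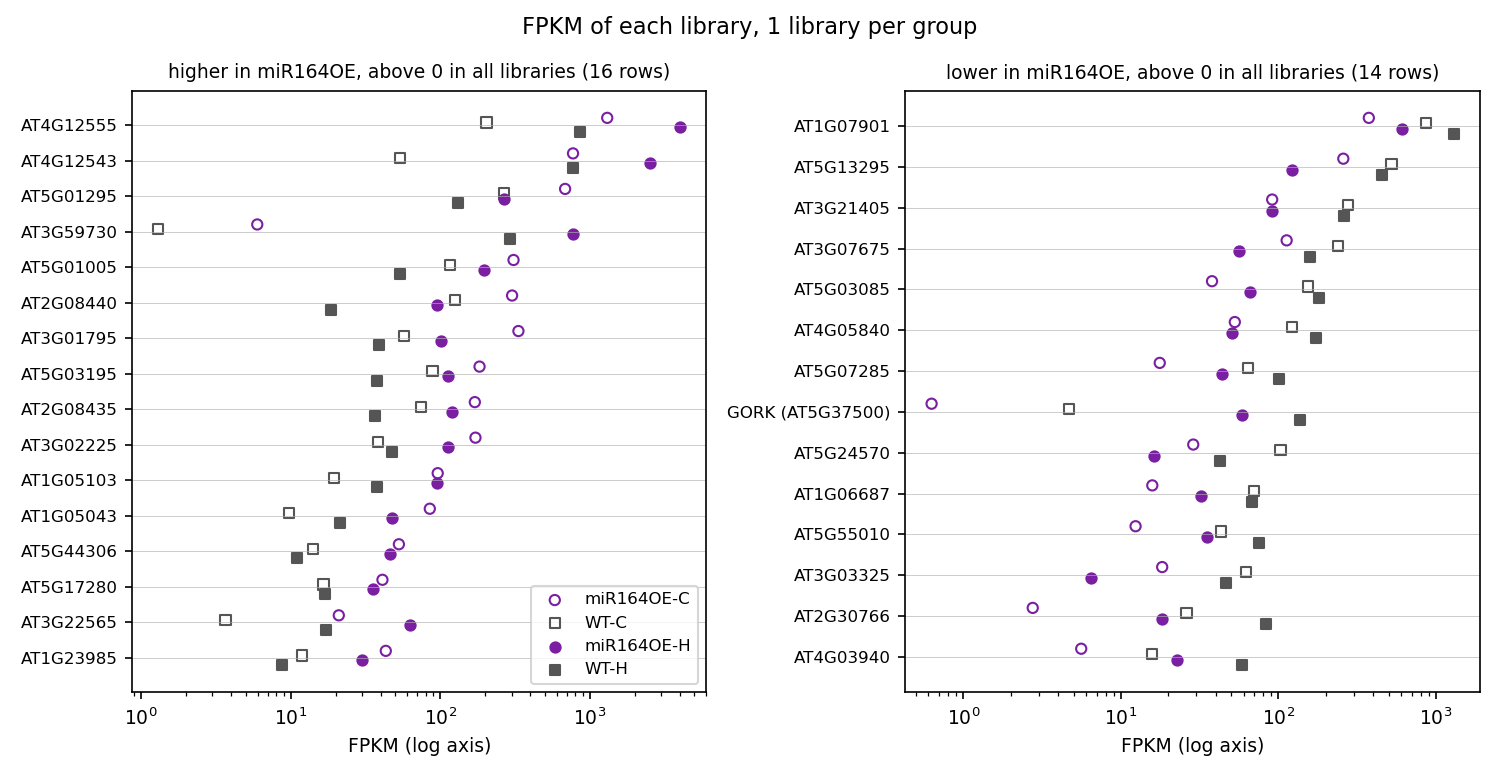
FPKM on a log axis of the 16 higher rows (left panel) and 14 lower rows (right panel) that were above 0 in all 4 libraries, 1 library per group, with circles for miR164OE and squares for WT, open without heat and filled with heat. GORK and LECRK56 (AT3G59730) show heat gaps far wider than their genotype gaps, and in the left panel AT4G12555 and AT4G12543 hold the highest values.

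Of all nuclear rows, 56.1% were listed at 0 in miR164OE-H, 64.8% in WT-H, 69.1% in miR164OE-C and 68.5% in WT-C. Most selected rows, although above the minimum on average, were also at 0 in some library. Among the higher rows, 30 of 46 had such a 0 (65.2%), and among the lower rows 23 of 37 (62.2%). The opposite-sign rows were similar, with 49 of 85 (57.6%), against 275 of all 2463 rows (11.2%). A 0 beside a value of 1 FPKM or more is itself past the fold, so the rule favours such rows. Over all 2463 rows, 59 were at 0 in both libraries of a genotype (2.40%). In 10 of the higher rows (21.7%) both WT libraries were at 0, with 33.0 to 253 FPKM in miR164OE-C and 29.4 to 309 in miR164OE-H. Of these, AT1G07647, opposite the cytochrome P450 gene CYP705A25, had 73.1 FPKM in miR164OE-C and 309 in miR164OE-H. In 12 of the lower rows (32.4%) both miR164OE libraries were at 0, with 32.002 to 699.8 FPKM in WT-C and 24.1 to 230.5 in WT-H. Of these, AT4G09365 had 699.8 FPKM in WT-C and 72.5 in WT-H, and AT2G07875 had 197 in WT-C and 227 in WT-H. No fold is given for such rows.

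Of the rows with a 0, 18 of 30 higher and 19 of 23 lower rows had under 300 exon bases, and on such rows few fragments make many FPKM. At 200 bases the low level was 33.4 FPKM in miR164OE-H, 47.4 in WT-H, 67.0 in miR164OE-C and 67.0 in WT-C, and at 1000 bases between 1.32 and 1.92. The rows with both WT libraries at 0 had a median of 217.5 exon bases, and in 7 of 10 the higher libraries were less than 3 times the low level in at least 1 comparison. The rows with both miR164OE libraries at 0 had a median of 257.5 bases, and 9 of 12 were under 3 times. Taking the smaller of both comparisons, the median multiple was 1.64 and 1.99 in these sets, beside 31.5 over all rows above the minimum. Whether these differences exceed counting error was not tested, since the table holds no counts and the depth is unknown.

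Counting only rows at least 10 times the low level in the higher library of both comparisons left 9 higher rows, 4 lower rows and 20 rows with opposite signs. The 9 higher rows were AT4G12555, AT4G12543, AT5G01295, AT3G22565, AT2G08435, AT3G02225, AT1G05043, AT1G08973 and AT1G04097. The 4 lower rows were AT5G13295, AT2G30766, AT4G03940 and AT3G07675. This level was reached by 75.4% of all 2463 rows, but by 19.6% of the higher, 10.8% of the lower and 23.5% of the opposite-sign rows. Rows with too few others of like length for a low level count here as not reaching it. Among them are AT1G07901, AT5G64395, U5.1b (AT3G08605) and AT5G41109.

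AT1G08973, a non-coding row of 1373 bases with 815 opposite ENDO2, a nuclease gene, had 31.2 FPKM in miR164OE-C and was listed at 0 in WT-C, and had 193 in miR164OE-H against 4.42 in WT-H. The ENDO2 row went the same way at a lower level, with 3.33 FPKM in miR164OE-C and 8.42 in miR164OE-H, and was listed at 0 in both WT libraries. Of the 36 higher rows with a coding gene on the other strand, this was the only one whose coding gene was past the fold upward in both comparisons, beside 30 of the 1475 coding genes opposite any row above the minimum (2.03%). Among the 21 lower rows with such a gene 0 had it past the fold downward in both, beside 22 of 1475 (1.49%). Many of these coding genes were low. A mean under 1 FPKM was found for 14 of the 36 (38.9%) and 12 of the 21 (57.1%), beside 563 of 1475 over all rows (38.2%). Listed at 0 in all 4 libraries, and so unable to pass, were 7 of the 36 and 6 of the 21. PGLCT, the plastid glucose transporter gene opposite the lower row AT5G16160, was past the fold upward in both.

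**Figure D4:**
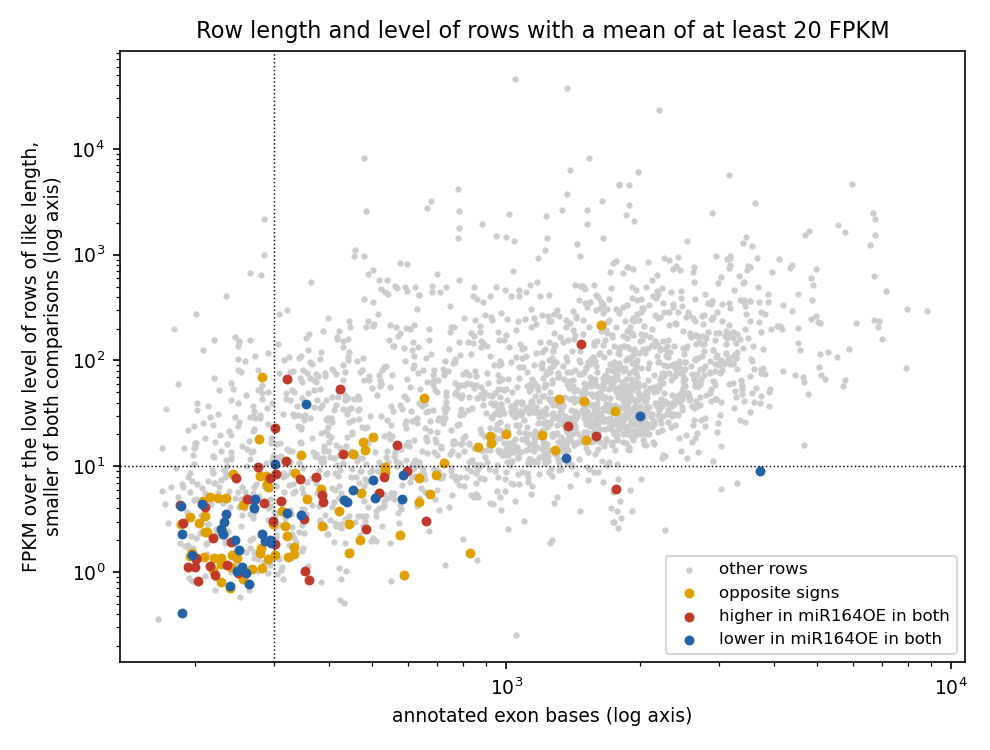
Annotated exon bases (x axis, log) against the FPKM of the higher library divided by the low level of rows of like length, taking the smaller of both comparisons (y axis, log); each point is 1 row, and dotted lines mark 300 bases and 10 times the low level. Rows past the fold in both comparisons, of the same or of opposite signs, crowd into the lower left, with medians of 303, 272 and 302 bases for higher, lower and opposite-sign rows against 1067 for all rows. Rows with too few others of like length are not drawn, among them AT1G07901 and the opposite-sign rows AT5G64395, U5.1b (AT3G08605) and AT5G41109.

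By annotated exons, 21 of the 46 higher rows (45.7%) and 23 of the 37 lower rows (62.2%) were under 300 bases, as were 42 of the 85 opposite-sign rows (49.4%) and 377 of all 2463 rows (15.3%). By the locus column, which spans every gene merged into 1 locus, only 5 selected rows were under 300 bases. Higher were AT1G06727 (210 bases) and AT3G06955 (203 bases), and lower were AT3G06755 (234), AT5G03085 (271) and AT4G05840 (228). AT1G06727 had 237 FPKM in miR164OE-C against 63.1 in WT-C, and 120.5 in miR164OE-H with 0 listed in WT-H. AT5G03085 had 37.9 FPKM in miR164OE-C against 154 in WT-C, and 65.9 in miR164OE-H against 181 in WT-H. The locus column misses most short rows because 67 of the 83 shared their locus with another row.

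The selected rows were mostly non-coding, as were the rows with opposite signs. Long non-coding RNA genes made up 31 of the 46 higher rows (67.4%) and 20 of the 37 lower rows (54.1%), against 64.7% of the opposite-sign rows and 35.8% of all 2463 rows. Coding genes made up 12 higher rows (26.1%) and 14 lower rows (37.8%), against 61.5% of all rows. Exons of a gene on the other strand overlapped 40 higher rows (87.0%) and 27 lower rows (73.0%), against 81.2% of the opposite-sign rows and 70.7% of all rows. Where that gene was coding, the selected row was the more abundant in FPKM in 34 of 36 higher and 20 of 21 lower cases, and in 1355 of 1475 cases over all rows. The rule largely set these counts in advance, since each row had to average 20 FPKM and the gene opposite had no minimum. On the chromosomes the higher rows numbered 11, 6, 11, 5 and 13 from chromosome 1 to chromosome 5, and the lower rows 4, 7, 7, 5 and 14.

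Heat differences of the selected rows went both ways within each genotype. They share libraries with the genotype differences and were taken on the listed FPKM, without rescaling to a common sum. Of the 46 higher rows, 12 were higher and 10 lower with heat in miR164OE, against 18.1% and 23.6% of all rows, and 14 were higher and 15 lower in WT, against 22.6% and 21.3%. Of the 37 lower rows, 9 were higher and 9 lower with heat in miR164OE, and 8 were higher and 8 lower in WT. Rows at 0 in both libraries of a genotype could not pass there: 10 higher rows in WT and 12 lower rows in miR164OE. A 0 in only 1 of these libraries passes wherever the other holds 1 FPKM or more. The selection therefore partly set these counts.

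The threshold divided rows of much the same values. Just inside it were AT5G01295 and AT5G17280 among higher rows, whose smaller differences were 1.02 and 1.03, and AT5G13295 and AT1G06687 among lower rows, at -1.01 and -1.04. Just outside it were AT4G08055 and AT2G08475, with 0.93 and 0.92 as their smaller differences upward, and AT3G14981 and SEN1, with -0.996 and -0.96 downward. SEN1, a senescence-associated gene, had 46.9 FPKM in miR164OE-C against 92.4 in WT-C, and was listed at 0 in miR164OE-H against 6.61 in WT-H.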

How the data were processed

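Values came from 4 strand-specific Agilent SureSelect libraries of Trizol-extracted RNA, as the labels' protocols describe. FPKM values were deposited by the authors in a single table, with 1 column per library. The submitters' processing notes name bcl2fastq 2.1.7, TopHat, Cufflinks and the build TAIR10; no version of TopHat or Cufflinks, strand setting or annotation is given in the sources used here. No counts are given and the depth is unknown, so no interval can be given.

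From these values, differences of log2(FPKM + 1), miR164OE minus WT, were computed with a pseudocount of 1, so the change of low rows is understated. Rows past the fold had an absolute difference of at least 1. All 32538 nuclear codes matched a gene of the TAIR10.1 RefSeq annotation, and 22475 of 22477 rows alone on their locus had the same start and end there. Exon length, gene type and overlap came from it. The stretch with the fewest mismatches to miR164a was sought in the sense exons of each row. The selected rows and the gene lists were chosen with earlier results of these data known. The genes named are the rows with the largest smaller difference, the highest mean or a locus under 300 bases, rows next to the threshold, the precursors and NAC targets, list members past the fold and genes opposite or beside named rows. AT3G22565, AT2G08435, AT3G02225, AT1G05043, AT5G16160, GORK, AT2G30766, AT4G03940 and the other genes of the AIR1 region were chosen after their values were seen. So was the set of rows opposite lipid-transfer genes. No test was made: each group has 1 library, and the rows were chosen on the differences a fit over the 4 libraries would test. Alternatives were the pseudocount, the row minimum, rescaling or centring, locus length and overlap, and, added after seeing the values, exon length, zeros and the low level. Python 3.11.15, numpy 2.4.6, pandas 2.3.3, Biopython 1.88 and matplotlib 3.10.9 were used.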

Additional observations from a re-analysis of the deposited data

Results flagged for a closer look

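The 4 widest opposite-sign rows of at least 300 bases by the locus column reversed direction between the comparisons without and with heat. The lengths given below are exon bases. These differences between the comparisons were not tested, as each group has 1 library. Every difference is taken against a listed 0, so its size depends on the pseudocount. AT5G64395, a row of 96 bases, had 1698 FPKM in miR164OE-C and 0 listed in WT-C, and 0 listed in miR164OE-H against 2817 FPKM in WT-H (difference with heat -11.46, and -14.78 or -9.14 with a pseudocount of 0.1 or 5 FPKM). U5.1b, a small nuclear RNA row of 101 bases with the code AT3G08605, was listed at 0 in miR164OE-C against 1587 FPKM in WT-C, and had 577 in miR164OE-H and 0 listed in WT-H (9.17, and 12.49 or 6.86). AT5G41109, of 141 bases, was listed at 0 in miR164OE-C against 425 FPKM in WT-C, and had 480.1 in miR164OE-H and 0 listed in WT-H (8.91, and 12.23 or 6.6002). AT5G15581, of 216 bases, had 346 FPKM in miR164OE-C and 0 listed in WT-C, and 0 listed in miR164OE-H against 184 FPKM in WT-H (-7.53, and -10.85 or -5.24).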

How the results depend on the processing

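Counts are given in the order higher in both, lower in both, opposite signs, past the fold without heat and past the fold with heat, against 46, 37, 85, 440 and 365. A row minimum of 5 FPKM gave 107, 88, 222, 1192 and 1043, one of 100 FPKM gave 14, 10, 25, 114 and 116, and none gave 555, 359, 985, 5530 and 5938. Rows without exon overlap on the other strand gave 6, 10, 16, 124 and 77. Of the alternatives added after seeing the data, rows of at least 300 exon bases gave 25, 14, 43, 284 and 199, rows above 0 in all 4 libraries 16, 14, 36, 255 and 210, and rows at least 10 times the low level 9, 4, 20, 145 and 126. These alternatives take in other numbers of rows. In none of the 12 alternatives did rows of the same sign outnumber rows of opposite signs; they ranged from 39.4% to 50% of the rows past the fold in both. Pseudocounts of 0.1 and 5 FPKM, rescaling the nuclear rows to a common sum, centring on the median difference and a locus of at least 300 bases kept all 5 counts within 1.5 times. The median difference of all rows was 0.01 without heat and -0.14 with heat; 77 of the 83 rows remained after rescaling and 78 after centring, and AT1G07901, AT1G06687, AT3G06755 and AT5G55010 missed the fold with heat under both, at -0.99, -0.95, -0.92 and -0.97 on the rescaled values. With a pseudocount of 5 FPKM, 70 of the 83 remained, and of the 13 lost, each in 1 comparison, GORK had -0.78, LECRK56 0.80 and AT4G03940 -0.97 without heat, and AT5G17280 0.89, AT5G01295 0.996, AT1G05043 0.99, AT1G06687 -0.96 and AT3G06755 -0.99992 with heat. No paired analysis was possible because each group has 1 library. The comparisons were not fitted together as pairs within a treatment.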
